A study of Mus musculus with 23 samples.

Results

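Mechanical force on a cell is read out by a small set of genes that respond to flowing liquid, stretch or a stiff surface, and 10 of them were followed here in mouse cells grown in still or moving culture. The set comprised the Kruppel-like transcription factors Klf2 and Klf6, the endothelial nitric oxide synthase gene Nos3, the endothelin-1 gene Edn1, the immediate early genes Egr1, Fos and Jun, and the matricellular genes Ctgf (Ccn2), Cyr61 (Ccn1) and Thbs1. Members were taken as every probe of the array that carries one of these symbols, which gave 15 probes for 10 of the 18096 gene symbols measured. Klf6 had 2 probes, Nos3 and Cyr61 had 3 each, and for these the values given are those of the probe brightest on average over all arrays.

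RNA was read on 23 Illumina mouse bead arrays from cells of the strain labelled 129X1/SvJ x 129S1. LKS cells (lineage-negative, c-kit+ and Sca-1+) were sorted from embryoid bodies on day 7 of spontaneous differentiation of embryonic stem cells (ESCs) in a Synthecon rotating vessel (8 arrays), a stirred Spinner flask (3 arrays) or Static suspension culture (3 arrays). Undifferentiated ESCs (undiff, day 0, 3 arrays), LKS cells of adult bone marrow (BM, mice of 10 weeks, 3 arrays) and LKS cells of fetal liver (FL, E15 embryos, 3 arrays) were the comparison groups. The study used 1 ESC line (R1, kept on mouse fibroblast feeders), depleted BM and FL of lineage-positive cells before the sort, and sorted the cultured cells by c-kit and Sca-1 alone. No group was a defined flow experiment on attached cells, so vessel, aggregate and cell composition differ together between cultures. The study also seeded Spinner flasks at a higher cell density than Static and Synthecon cultures.

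Laminar flow over endothelium is known to induce Klf2 through the MEK5 and ERK5 kinases and MEF2 factors, and Klf2 in turn raises Nos3 and lowers Edn1. Egr1, Fos and Jun are switched on within minutes by growth factors, stretch and also by the handling of cells, through serum response and cyclic AMP response elements and through AP-1, the dimer that Fos and Jun form. Ctgf and Cyr61 encode secreted proteins of the CCN family and are standard targets of YAP and TAZ, which bind DNA with TEAD factors when the cytoskeleton is under tension. In mouse ESCs Klf2 has a second role, since it maintains self-renewal together with Klf4 and Klf5.

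The RefSeq promoter table (build GRCm38.p6) held 6 of the 10 genes, namely Klf2, Klf6, Edn1, Fos, Jun and Cyr61. The 250 bases before the start site are shown for the 4 of these that either lead the comparison between cultures (Fos, Jun, Cyr61) or are the best known flow gene (Klf2). Capitals mark matches on either strand to a MEF2 site, a CArG box (the serum response element core), the cyclic AMP response element core TGACGT, the AP-1 site TGANTCA or the TEAD site GGAATG.
Klf2 (chr8:72318812-72319061, plus strand): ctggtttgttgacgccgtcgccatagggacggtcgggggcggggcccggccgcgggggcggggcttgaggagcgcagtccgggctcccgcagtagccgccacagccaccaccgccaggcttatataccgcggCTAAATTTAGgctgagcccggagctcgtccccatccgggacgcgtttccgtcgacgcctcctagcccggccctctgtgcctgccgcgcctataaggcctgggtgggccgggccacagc
Jun (chr4:95052223-95052472, minus strand): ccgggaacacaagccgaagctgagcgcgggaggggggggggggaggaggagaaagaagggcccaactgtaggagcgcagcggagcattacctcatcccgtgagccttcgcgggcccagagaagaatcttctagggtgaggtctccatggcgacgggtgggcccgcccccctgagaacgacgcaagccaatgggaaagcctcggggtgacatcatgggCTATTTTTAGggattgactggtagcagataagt
Fos (chr12:85473640-85473889, plus strand): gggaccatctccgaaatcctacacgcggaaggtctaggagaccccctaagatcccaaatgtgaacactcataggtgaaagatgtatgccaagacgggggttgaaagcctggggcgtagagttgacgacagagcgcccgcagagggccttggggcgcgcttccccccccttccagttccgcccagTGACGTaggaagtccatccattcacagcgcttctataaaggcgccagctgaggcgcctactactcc
Cyr61 (chr3:145649986-145650235, minus strand): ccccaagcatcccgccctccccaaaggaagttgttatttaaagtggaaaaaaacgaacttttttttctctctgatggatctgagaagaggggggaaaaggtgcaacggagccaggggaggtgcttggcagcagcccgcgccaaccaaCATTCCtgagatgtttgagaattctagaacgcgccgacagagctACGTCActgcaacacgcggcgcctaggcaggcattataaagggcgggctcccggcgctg

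Klf2 and Jun each held a MEF2 site, beginning 118 and 33 bases before the start site, and 0.508% of all 32851 promoter windows of the same length held one. The cyclic AMP response element core lay 66 bases before the start of Fos and 59 before that of Cyr61, and occurred in 6.47% of all windows. Cyr61 also had a TEAD match 103 bases before its start, and Edn1 had one 207 bases before its start, against 12.6% of all windows. None of the 6 windows held the AP-1 site (6.75% of all windows) or a CArG box (1.47% of all windows), none of the matches overlapped, and Klf6 held none of the 5 motifs. A match is a description of letters and not a site at which binding was measured.

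Values are log2 of the quantile-normalized probe signal as deposited, and a probe counted as above background on an array at a detection p under 0.01. Between 9785 and 11204 of the 25697 probes were above background on an array. The 8 Synthecon arrays fell into 2 sets (replicates 1, 3, 5 and 7, and replicates 2, 4, 6 and 8). Within a set and slide, arrays differed by a median of 0.0794 to 0.0922 (absolute log2 difference over 7170 probes above background on every array), against 0.178 to 0.191 between the sets on 1 slide. They were therefore entered as 2 samples (the mean of each set), so that 17 samples were compared, and group means and SDs below are over samples with n = 2 for Synthecon and n = 3 for each other group. Spinner replicates 1 and 2, on 1 slide, differed by 0.103, and Spinner pairs on different slides by 0.16 to 0.162. Synthecon arrays of the same set on different slides differed by 0.231 to 0.252. The Spinner arrays were thus about as close as near-repeats but entered as 3 samples, so their spread may be understated. The 3 Static arrays differed from each other most of all groups by this measure, by 0.329 to 0.445. The labels number all arrays as biological replicates without naming separate cultures or animals, so p-values measure the spread between these samples, which may be partly technical.

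Marker genes were then read on the arrays. Ly6a, which encodes Sca-1, was above background on all 23 arrays, undiff included, and Kit was not matched to a probe. Detection of Ly6a therefore does not set the LKS groups apart and is no check of the sort. The common leukocyte gene Ptprc was below background on every Synthecon, Spinner, Static and undiff array and above it on 3 of 3 BM and 2 of 3 FL arrays. The mean log2 signal of 8 measured blood progenitor genes was 7.02 to 7.19 on Synthecon, 6.65 to 6.76 on Spinner and 7.20, 8.49 and 8.81 on Static replicates 1, 2 and 3, against 9.41 to 9.82 in BM and 9.23 to 9.49 in FL. The mean of 6 pluripotency genes (Pou5f1, Nanog, Sox2, Zfp42, Esrrb and Dppa5a) was 12.39 to 12.85 on Synthecon and 12.48 to 12.52 on Spinner, close to the 11.75 to 12.37 of undiff, and 12.22, 9.28 and 8.02 on Static replicates 1, 2 and 3. Static replicates 2 and 3 thus differed from Static replicate 1 and from both moving cultures in these markers. Their part in the differences given below was not tested, and in sorted bulk samples a change in RNA per cell and a change in the share of cells that carry it cannot be told apart.

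**Figure D1:**
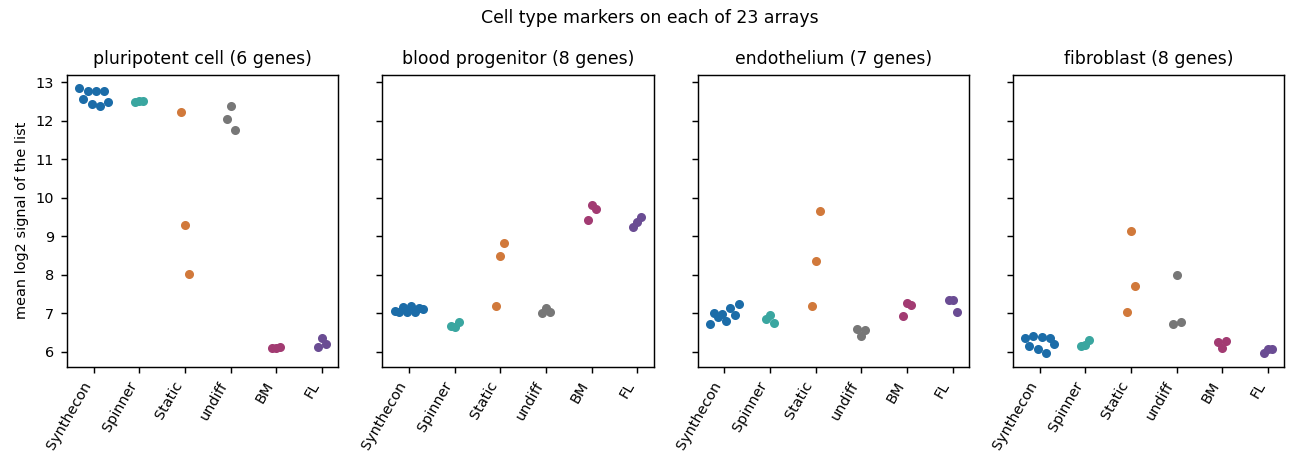
Mean log2 signal of 4 marker lists (vertical axes) on each of the 23 arrays, by group; 1 point is 1 array. Static replicate 1 lies with Synthecon, Spinner and undiff for pluripotency genes, and Static replicates 2 and 3 lie lower there and higher for blood progenitor and endothelial genes. For fibroblast genes Static replicate 3 (7.70) lies just under undiff replicate 2 (7.99).

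The first comparison asked how the cultures with moving liquid differed from Static culture. In Synthecon cells the immediate early genes Egr1, Fos and Jun and the CCN gene Cyr61 were lower than in Static cells, and no member was higher by the test. The test was limma with a trended moderated variance, with p-values adjusted over all probes by the Benjamini-Hochberg method, and calls were made where the adjusted p lay under 0.05. These 4 of 10 members called stand beside 11.5% of all probes called in Synthecon minus Static, 4.87% lower and 6.62% higher. The median log2 difference of the 10 members was -1.04, against 0.01 over all probes. In Spinner cells 1 member, Jun, was lower than in Static cells, beside 10.3% of all probes called, 5.13% lower and 5.18% higher, and the median difference of the members was -0.62 against 0.02 over all probes.

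Egr1, a zinc finger transcription factor of the immediate early response, showed the largest difference between cultures of the 10 genes. It read 10.11, 10.37 and 10.53 (lowest, median and highest) on the 8 Synthecon arrays and 11.66, 12.23 and 12.80 on Spinner replicates 1, 2 and 3, against 12.72, 13.73 and 13.94 on Static replicates 1, 2 and 3. All Synthecon arrays lay below every Spinner and Static array, and the Spinner and Static arrays overlapped. The means were 10.33 ± 0.15 in Synthecon cells, 12.23 ± 0.57 in Spinner cells and 13.46 ± 0.65 in Static cells (SD). Synthecon minus Static was -3.13 ± 0.51 (SE, 95% interval -4.22 to -2.05), an 8.78-fold lower signal, with a limma adjusted p of 0.00111. That call held without each of the 17 samples in turn, with adjusted p up to 0.0217, and the difference was -3.91 with the slide as a block. Spinner minus Static was -1.23 ± 0.46 (adjusted p = 0.101, limma), and it passed the threshold without Static replicate 1 (-1.60, adjusted p = 0.0273) or without BM replicate 1 (adjusted p = 0.0322).

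Jun, which encodes the AP-1 subunit c-Jun, was dim in the moving cultures. It read 6.50, 6.80 and 7.29 (lowest, median and highest) on the Synthecon arrays, 3 of which were below background, and 7.29, 7.39 and 7.93 on Spinner replicates 1, 2 and 3, against 8.48, 8.78 and 9.26 on Static replicates 1, 2 and 3. No array of the moving cultures reached the lowest Static array. Synthecon minus Static was -1.99 ± 0.37 (adjusted p = 0.00294, limma) and Spinner minus Static was -1.30 ± 0.33 (adjusted p = 0.0219, limma). The Synthecon call was lost without Synthecon replicates 1, 3, 5 and 7 (-1.75, adjusted p = 0.0606). The Spinner call was lost without Spinner replicate 1 (adjusted p = 0.0996), Spinner replicate 2 (0.0858), Static replicate 2 (0.0639) or Static replicate 3 (0.112), with differences between -1.09 and -1.33, and within slide 1 alone (-1.29, adjusted p = 0.068).

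Fos, the partner of Jun in AP-1, was lower in Synthecon than in Static cells, while its Spinner estimate lay near 0 and the difference between the moving cultures did not pass the test unless the design was changed, for example with the slide as a block. Its lowest, median and highest values were 10.28, 10.81 and 11.20 on the Synthecon arrays, and it read 11.44, 12.04 and 12.90 on Spinner replicates 1, 2 and 3, against 11.84, 12.46 and 12.80 on Static replicates 1, 2 and 3. The Spinner and Static values overlapped. Synthecon minus Static was -1.59 ± 0.43 (adjusted p = 0.0254, limma) and Spinner minus Static was -0.24 ± 0.39 (95% interval -1.06 to 0.59, adjusted p = 0.782). The Synthecon call was lost without Static replicate 2 (-1.55, adjusted p = 0.0791), Static replicate 3 (-1.38, 0.0759), Synthecon replicates 1, 3, 5 and 7 (-1.25, 0.27) or Synthecon replicates 2, 4, 6 and 8 (-1.94, 0.0634).

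Cyr61, a secreted ligand of integrins, had its lowest mean in Synthecon and its highest in Static cells, with Spinner cells between them. Its brightest probe read 7.33, 8.13 and 8.60 (lowest, median and highest) on the Synthecon arrays and 8.88, 9.03 and 8.59 on Spinner replicates 1, 2 and 3, against 9.01, 10.18 and 10.44 on Static replicates 1, 2 and 3. Spinner replicate 2 and Static replicate 1 were almost equal. Synthecon minus Static was -1.87 ± 0.38 (adjusted p = 0.00441, limma), lost without Synthecon replicates 1, 3, 5 and 7 (-1.58, adjusted p = 0.0875), and Spinner minus Static was -1.04 ± 0.34 (adjusted p = 0.0608), called without Static replicate 1 (-1.47, adjusted p = 0.00185) or without undiff replicate 2 (adjusted p = 0.047). The other 2 probes of Cyr61 had Synthecon minus Static differences of -1.31 (adjusted p = 0.073) and -1.41 (adjusted p = 0.0037), and the last of these was above background on 2 of 8 Synthecon arrays only. Markers of fibroblasts averaged 5.96 to 6.42 over 8 genes on Synthecon and 6.16 to 6.31 on Spinner, against 7.03, 9.14 and 7.70 on Static replicates 1, 2 and 3, and their part in the Cyr61 difference was not tested.

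The arrays lay on 3 slides, and within slide 3, which held Static replicate 3 and Synthecon replicates 3 to 8, the Synthecon minus Static differences were -3.61 for Egr1, -2.05 for Fos, -2.36 for Jun and -2.58 for Cyr61. A single Static array stood for its group there and the Synthecon arrays were near-repeats, so these are values with no test of the cultures. With the slide as a fixed block the differences were -2.23 for Fos, -2.61 for Jun and -1.89 for Cyr61, which were called together with that of Egr1, and Klf6 (-1.83, adjusted p = 0.00119), Nos3 (-1.09, 0.00418) and Edn1 (-1.40, 0.00827) were called as well. That fit, like the fit with the slide as a random block given below, enters each Synthecon set once per slide, as up to 4 samples. Near-repeats thus count as samples in both fits, and their p-values may be too small. Within slide 1, which held Static replicates 1 and 2 and Spinner replicates 1 and 2, Spinner minus Static was -1.28 for Egr1 (adjusted p = 0.243) and -0.64 for Cyr61 (adjusted p = 0.514), and with the slide as a block Egr1 passed (-1.30, adjusted p = 0.0186).

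**Figure D2:**
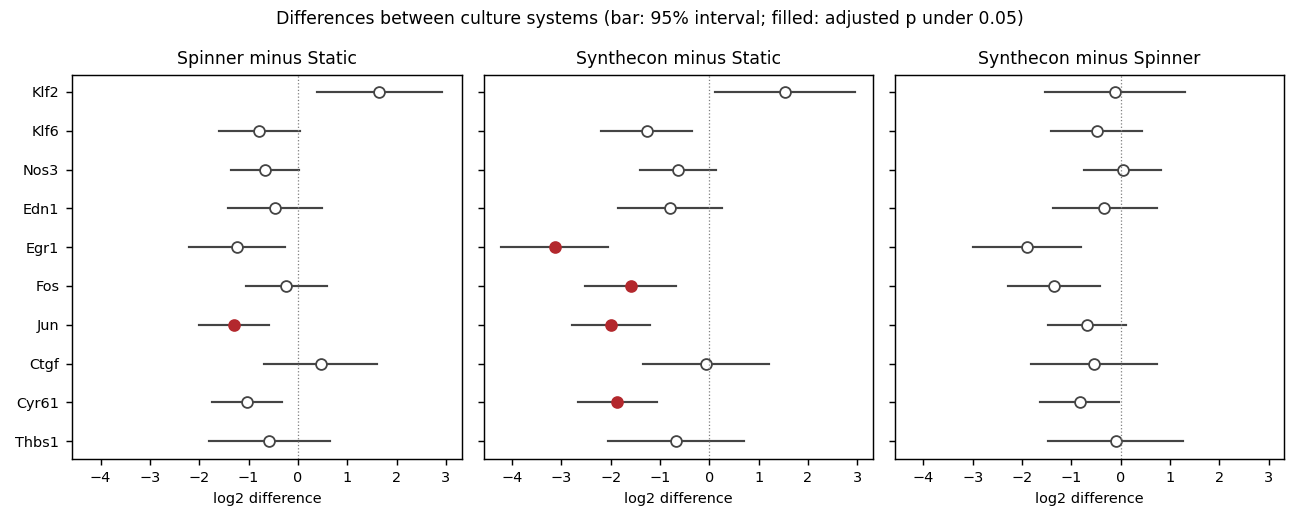
Log2 difference of each gene (horizontal axes) in the 3 comparisons between cultures, with 95% intervals; filled points have an adjusted p under 0.05. Egr1, Fos, Jun and Cyr61 are filled in Synthecon minus Static, Jun in Spinner minus Static, and none in Synthecon minus Spinner.

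Klf2, the gene most closely tied to laminar flow, was the only member whose estimate was higher in both moving cultures than in Static culture, and it did not pass the test. It read 11.82, 12.16 and 12.45 (lowest, median and highest) on the Synthecon arrays and 12.07, 12.25 and 12.37 on Spinner replicates 1, 2 and 3, against 11.81, 10.25 and 9.67 on Static replicates 1, 2 and 3. Every array of the moving cultures was above every Static array, but Static replicate 1 was only just below them. Synthecon minus Static was 1.54 ± 0.67 (95% interval 0.11 to 2.96, adjusted p = 0.17, limma) and Spinner minus Static was 1.65 ± 0.60 (95% interval 0.38 to 2.93, adjusted p = 0.0928). Without Static replicate 1 the differences were 2.15 (adjusted p = 0.029) and 2.27 (adjusted p = 0.0119), and without BM replicate 1 the Spinner difference also passed (1.65, adjusted p = 0.0265). The pluripotency marker mean followed the same order on the Static arrays, at 12.22, 9.28 and 8.02, and its part in the Klf2 values was not tested.

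Klf6, a stress-induced Kruppel-like factor, lay in the opposite direction. Its lowest, median and highest values were 10.48, 10.64 and 11.01 on the Synthecon arrays, and it read 11.11, 11.14 and 11.31 on Spinner replicates 1, 2 and 3, against 11.14, 12.29 and 12.47 on Static replicates 1, 2 and 3. Synthecon minus Static was -1.27 ± 0.43 (adjusted p = 0.0731, limma) and Spinner minus Static was -0.78 ± 0.39 (adjusted p = 0.234). Without Static replicate 1 both passed, at -1.68 (adjusted p = 0.00891) and -1.19 (adjusted p = 0.0349), and without BM replicate 1 the Synthecon difference passed as well (adjusted p = 0.0201). It also passed with the slide as a fixed (-1.83, adjusted p = 0.00119) or random block (-1.44, 0.00538). The second, dimmer probe of Klf6 read 7.49, 8.57 and 7.22 on Static replicates 1, 2 and 3 and 7.47, 7.41 and 7.65 on Spinner replicates 1, 2 and 3. Its Spinner values thus lay within the Static range. It read 6.04 to 7.02 on the Synthecon arrays, above background on 2 of 8. Over the 8 culture samples Klf2 and the brightest Klf6 probe correlated at r = -0.92 and that probe and Cyr61 at r = 0.97, which describes samples that share groups, slides and marker levels.

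Nos3 and Edn1, the endothelial effectors of flow, were read near background, and 1 Static array stood out. The probe of Nos3 read here was above background on 2 of 8 Synthecon, 0 of 3 Spinner and 1 of 3 Static arrays, and its second probe on 5 of 8, 1 of 3 and 2 of 3. The first probe read 6.57, 6.81 and 8.34 on Static replicates 1, 2 and 3. The other 2 probes were also highest on Static replicate 3, at 8.76 and 7.96. Edn1, the precursor of a vasoconstrictor peptide, read 6.80, 6.90 and 7.17 (lowest, median and highest) on the Synthecon arrays and 7.39, 6.88 and 7.54 on Spinner replicates 1, 2 and 3, against 7.16, 6.77 and 9.27 on Static replicates 1, 2 and 3. Neither gene was called between cultures (adjusted p between 0.215 and 0.98, limma), and both passed in Synthecon minus Static with the slide as a fixed block, as given above, but not with a random block (0.0533 for Nos3 and 0.0939 for Edn1). Without Static replicate 1 Nos3 passed in Spinner minus Static (-1.01, adjusted p = 0.0351), and without Static replicate 3 Nos3 differed by -0.09 in Synthecon minus Static and by -0.13 in Spinner minus Static. The endothelial gene Cdh5 (VE-cadherin) read 8.55 on that array and was below background on the other Static, all Spinner and all Synthecon arrays, and the mean of 7 endothelial markers was 9.65 there. Kdr, which encodes a VEGF receptor that takes part in flow sensing, was below background on all 23 arrays. Endothelial markers averaged 6.72 to 7.25 on Synthecon and 6.75 to 6.96 on Spinner, against 7.19 and 8.35 on Static replicates 1 and 2.

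Ctgf and Thbs1 did not separate the cultures by this test. Ctgf was bright, at 11.39, 11.78 and 12.31 (lowest, median and highest) on the Synthecon arrays and 12.52, 12.65 and 11.99 on Spinner replicates 1, 2 and 3, against 12.11, 10.68 and 12.97 on Static replicates 1, 2 and 3. Its differences were -0.07 (95% interval -1.35 to 1.21) for Synthecon minus Static and 0.47 (-0.68 to 1.61) for Spinner minus Static, so neither interval leaves out a difference of 1 log2 unit upward. Thbs1, which encodes the matricellular protein thrombospondin-1, was below background on all Synthecon and Spinner arrays and reached 6.92 and 6.91 on Static replicates 2 and 3. Ctgf and Cyr61, although both are CCN genes, correlated at r = 0.05 over the 8 culture samples.

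The second comparison was between the 2 moving cultures. No member was called in Synthecon minus Spinner by limma, beside 2.84% of all probes, 3 members had an unadjusted p under 0.05, and the methods' t-test called none. The estimates were -1.90 ± 0.51 for Egr1 (adjusted p = 0.0594), -1.36 ± 0.43 for Fos (adjusted p = 0.11) and -0.83 ± 0.38 for Cyr61 (adjusted p = 0.267). Egr1 had no overlap between the 8 Synthecon and 3 Spinner arrays, and nor had Fos or the brightest probe of Klf6. Over the samples of the fit 5 of the 10 members had no overlap, with only 2 Synthecon samples. Egr1 passed the threshold without Static replicate 1 (adjusted p = 0.0342), Static replicate 3 (0.0432), BM replicate 1 (0.0162) or BM replicate 2 (0.0416). With the slide as a fixed block Egr1 (-2.61, adjusted p = 0.00113), Fos (-1.93, 0.00355) and Jun (-1.32, 0.0104) were called, and with a random block Egr1 (-2.11, 0.00384) and Fos (-1.51, 0.0139). Both fits enter each Synthecon set once per slide, as up to 4 samples. Near-repeats thus count as samples there, and these p-values may be too small. On slide 2, which held Spinner replicate 3 alone of its group and Synthecon replicates 1 and 2, Egr1 differed by -2.48 and Fos by -2.07, given as values without a test. Klf2 differed by -0.12 with a 95% interval of -1.54 to 1.31.

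Wider lists of the same pathways gave the setting for the members. All counts of list genes in the comparisons with Static stand beside the shares of all probes called. These were 4.87% lower and 6.62% higher in Synthecon cells, and 5.13% lower and 5.18% higher in Spinner cells. No test was made of the counts against these shares. Of 14 measured cytoskeletal target genes of serum response factor, 7 were lower and 0 higher in Synthecon than in Static cells (median difference -1.12, against 0.01 over all probes), among them Acta2 (-4.02, adjusted p = 0.0182), Zyx (-1.67, 0.0153), Tpm1 (-1.58, 0.0267) and Actg2 (at least 1.58-fold, 0.0489), which encode a smooth muscle actin, a focal adhesion protein, a tropomyosin and a second actin. In Spinner minus Static 2 of the 14 were lower, Actg2 and Zyx. Without Static replicates 1, 2 and 3 in turn the Synthecon count was 7, 1 and 2 and the Spinner count 5, 1 and 0. Of 19 other immediate early genes, 2 were lower in Synthecon cells, beside the 4.87% of all probes, with Dusp2, a phosphatase that limits MAP kinase signalling, at least 4.97-fold lower than in Static cells (adjusted p = 0.0111). In Spinner minus Static 3 of the 19 were lower, Dusp2 (at least 4.74-fold, adjusted p = 0.00861), Zfp36 (-1.52, 0.0453) and Nr4a2 (0.0377, below background in Spinner cells). Without Static replicate 1 the counts were 7 in Synthecon and 5 in Spinner cells, and without Static replicate 2 or 3 they were 1 each.

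The endothelin receptors and the converting enzyme differed more between cultures than Edn1 itself. Of 17 other nitric oxide and endothelin genes, 5 were lower in Synthecon and 5 in Spinner cells than in Static cells, and they were the same genes: Ednra (-3.85 in Synthecon and -3.74 in Spinner cells), Ednrb (at least 8.07-fold lower in Synthecon cells, and -3.39 in Spinner cells), Gucy1a3 (-2.57 in Synthecon cells, and at least 4.92-fold lower in Spinner cells), Gucy1b3 (at least 2.76-fold and 2.64-fold lower) and Ece1 (-1.91 and -2.47). Ass1, which makes the precursor of arginine for nitric oxide synthesis, was higher in Synthecon than in Static cells (3.09, adjusted p = 0.00369). Nos1, at background, also passed as higher in both. Without Static replicates 1, 2 and 3 in turn the lower genes numbered 5, 5 and 6 in Synthecon and 5 each in Spinner cells, and the higher genes 3, 2 and 2 in Synthecon and 5, 0 and 0 in Spinner cells. Of 8 fibroblast markers 4 were lower in each moving culture than in Static culture, and their part in these differences was not tested.

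Of 16 other YAP and TAZ targets, Rbms3, Tgfb2 and Ccdc80 were lower in both moving cultures. The differences were -3.92 and -4.03 for Rbms3 and -3.04 and -2.34 for Tgfb2 in Synthecon and Spinner minus Static, and Ccdc80 was at least 4.40-fold and 4.20-fold lower. The kinase gene Nuak2 was higher in Spinner cells (1.70, adjusted p = 0.0189). Among 14 Hippo components, Tead4 was higher in Synthecon cells (2.37, adjusted p = 5.97e-05) and in Spinner cells (1.02, adjusted p = 0.0129) than in Static cells, and also higher in Synthecon than in Spinner cells (1.35, adjusted p = 0.0115). Vgll4, which encodes a TEAD co-factor, was lower in Synthecon (-1.24) and in Spinner cells (-1.52), and Sav1 (-0.85) and Mob1a (-0.71) were lower in Spinner cells. Of 8 other CCN and thrombospondin family genes 3 were lower in Synthecon and 2 in Spinner cells, with Wisp1 at -2.79 and -2.78 and Cd47, a receptor of thrombospondin-1, at -2.03 and -1.94. Without Static replicates 1, 2 and 3 in turn, the lower YAP and TAZ targets numbered 5, 4 and 3 in either moving culture and the lower Hippo genes of Spinner cells 3, 1 and 1. The lower CCN and thrombospondin genes then numbered 3, 2 and 2 in Synthecon and 2, 1 and 1 in Spinner cells.

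Of 14 other Kruppel-like factors, Klf9 was higher in Synthecon (1.86, adjusted p = 0.0047) and Spinner cells (1.28, adjusted p = 0.0255) than in Static cells, and Klf12, below background on every array, passed the test in Synthecon minus Static. Klf4, the other flow-induced factor of the family, averaged 10.73 on Synthecon and 10.22 on Spinner arrays and read 8.47 to 10.51 on Static arrays, and was not called. Of 18 endothelial shear genes Angpt2 was lower in Synthecon (-3.40, adjusted p = 9.56e-06) and at least 9.19-fold lower in Spinner cells, and Icam1 was higher in Synthecon cells (1.36, adjusted p = 0.037). Of 16 mechanosensor genes 1 was higher and 2 lower in Synthecon cells, and 0 higher and 2 lower in Spinner cells. Of all probes 11.5% and 10.3% were called in these comparisons, so such small counts are no result about the list. The integrin subunit gene Itgb1 was lower in Synthecon (-1.24) and Spinner cells (-0.72), Cdh5 lower in Synthecon cells (at least 1.37-fold), the channel gene Piezo2 lower in Spinner cells (at least 1.13-fold), and Syne1, which links the nucleus to the cytoskeleton, higher in Synthecon cells (at least 1.34-fold). No gene of 6 heat shock genes, which are induced by heat and by handling, was called in either comparison by limma, and 1 was called as higher in each without Static replicate 1 and in each without Static replicate 3, where 1 was also lower in Synthecon cells. Without Static replicate 1 the higher Kruppel-like factors numbered 3 in Synthecon and 4 in Spinner cells and the lower mechanosensor genes 4 and 6 (1 in Synthecon and 1 or 0 in Spinner cells without Static replicate 2 or 3), while without Static replicate 2 or 3 no Kruppel-like factor was called in Spinner cells.

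Against undifferentiated ESCs, few members differed. In Synthecon minus undiff 2 members were called (11.5% of all probes), Egr1 (-1.82 ± 0.48, adjusted p = 0.031, limma) and Cyr61 (-1.46, adjusted p = 0.0194), both lower. Both calls were lost without single samples, Egr1 without undiff replicate 1 or 2 or either Synthecon set, and Cyr61 without undiff replicate 2 or either Synthecon set (adjusted p between 0.0567 and 0.209). No member was called in Spinner minus undiff (4.54% of all probes called, 2 members with unadjusted p under 0.05, none by the methods' t-test). In Static minus undiff 2 members were called (13.2% of all probes), Fos (1.48, adjusted p = 0.0197) and Jun (1.15, adjusted p = 0.0334), both higher in Static cells. Each of these calls was lost without any of 4 samples, Static replicate 2 or 3 and 2 of the undiff replicates (adjusted p between 0.0559 and 0.146).

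The widest separation of the members was between cells of ESC origin and the blood-forming tissues. Ctgf read 11.39 to 12.31 on Synthecon, 11.99 to 12.65 on Spinner, 10.68 to 12.97 on Static and 12.21 to 12.66 on undiff arrays, against 6.04 on each of the 3 BM arrays, all below background. In FL it read 6.58 and 6.65 below background on replicates 1 and 3, and 8.81 on replicate 2, and with 2 of 3 FL arrays below background the fitted differences from FL, which are not bounds, were 4.51 in Synthecon, 5.04 in Spinner, 4.57 in Static and 5.03 in undiff cells (limma adjusted p from 5.13e-06 to 4.55e-05). Ctgf was at least 29.9-fold higher in Synthecon, 43.4-fold in Spinner, 31.3-fold in Static and 43.1-fold in undiff than in BM (limma adjusted p from 3.28e-07 to 2.98e-06), where such a bound sets the bright group against the dimmest signal above background on each array of the dim group or the dim probe's own signal, whichever was higher. Cyr61 was below background on all 3 BM and all 3 FL arrays and was at least 2.07-fold higher in Synthecon, 3.70-fold in Spinner, 7.60-fold in Static and 5.72-fold in undiff than in BM. These calls for Ctgf and Cyr61 against BM and FL held without each of the 17 samples in turn. The ESCs were kept on fibroblast feeders, and the 8 fibroblast markers averaged 6.72 to 7.99 on undiff arrays. They averaged 7.03 to 9.14 on Static, 5.96 to 6.42 on Synthecon and 6.16 to 6.31 on Spinner arrays, against 6.11 to 6.29 in BM and 5.98 to 6.07 in FL. The part of feeder cells in the undiff values was not tested.

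Of the 14 Hippo pathway components, which include the factors that drive Ctgf and Cyr61, 4 were higher and 2 lower in Synthecon than in BM, 4 higher and 4 lower in Spinner than in BM, and 4 higher and 1 lower in Static than in BM. Of all probes 15.2%, 14.8% and 11.6% were higher and 14.2%, 13.7% and 11.6% lower in Synthecon, Spinner and Static minus BM. The 4 higher genes were Yap1, Wwtr1 (TAZ), Tead2 and Tead4 in each, and Sav1 and Mob1a were lower in Synthecon and Spinner cells. Yap1 averaged 10.36 in Synthecon, 10.02 in Spinner, 10.09 in Static and 10.03 in undiff arrays and was below background on all BM and FL arrays, at least 10.6-fold higher in Synthecon than in BM (adjusted p = 3.89e-10, limma). Tead2 was at least 15-fold higher in Synthecon than in BM (adjusted p = 1.84e-08). Among all genes, those whose pattern over the 17 samples was nearest to Ctgf were Snurf (r = 0.974), Cd276 (0.973) and Ptprk (0.972), and to Cyr61 were Rhoc (0.980), Rab34 (0.978) and Efemp2 (0.973). Epithelial markers (3 genes) moved in the same way, at 10.19 to 10.98 on Synthecon, 10.35 to 10.67 on Spinner, 10.32 to 11.51 on Static and 11.08 to 12.14 on undiff, against 7.24 to 7.34 in BM and 6.65 to 7.00 in FL, and their part was not tested.

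Fos was highest in BM. It read 13.47, 14.57 and 14.59 on BM replicates 1, 2 and 3 and 12.68, 13.16 and 13.67 on FL replicates 1, 2 and 3, and no Synthecon, Spinner, Static or undiff array reached the lowest BM array. Fos was lower than in BM by -3.44 in Synthecon, -2.09 in Spinner, -1.85 in Static and -3.33 in undiff cells (limma adjusted p from 8.33e-06 to 0.0022), and these calls held without each sample. Jun was lower than in BM in Synthecon (-2.92), Spinner (-2.23) and undiff cells (-2.08), and in Static minus BM it was -0.93 with an adjusted p of 0.056 (called without BM replicate 1, Static replicate 3 or FL replicate 3). Against FL, Jun in Static cells differed by 0.12 (adjusted p = 0.857), and Fos by -1.04 in Spinner (adjusted p = 0.06) and -0.81 in Static cells (adjusted p = 0.167), none of them called. The immediate early gene Fosb had the same order, with -4.68 in Synthecon, -3.95 in Spinner and -3.40 in Static minus BM (limma adjusted p from 6.61e-06 to 5.71e-05). Of the 19 immediate early genes of the list 9 were lower and 1 higher in Synthecon and in Spinner cells, and 6 lower and 1 higher in Static cells, than in BM, beside the shares of all probes given above. Monocyte and macrophage markers (5 genes) averaged 6.40 to 6.62 on Synthecon, 6.03 to 6.13 on Spinner and 6.39, 9.14 and 8.71 on Static replicates 1, 2 and 3, against 8.89 to 10.88 in BM and 9.27 to 11.77 in FL, and their part in the AP-1 values was not tested. BM and FL cells also went through lineage depletion before the sort, and the cultured LKS cells did not. For genes that respond to handling, such as Fos, Jun and Egr1, tissue and preparation cannot be told apart.

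The remaining members differed case by case. Egr1 was lower in Synthecon cells than in BM (-3.13, adjusted p = 0.000214) and in FL (-1.64, adjusted p = 0.0259), and Static cells matched BM in mean (13.46 each, difference 0.00, adjusted p = 0.997). Klf6 was lower in Synthecon (-1.86, adjusted p = 0.00379) and Spinner cells (-1.37, adjusted p = 0.0136) than in BM. The Synthecon call of Klf6 was lost without Synthecon replicates 1, 3, 5 and 7 (adjusted p = 0.0516), and the Spinner call without BM replicate 2 or 3 (0.0789 and 0.0702). Edn1 was below background on all BM and FL arrays, and was at least 1.73-fold higher in Static cells than in BM (adjusted p = 0.0255, lost without Static replicate 3, where the difference was 0.69, and without BM replicate 1, 2 or 3). Egr1 in Synthecon minus FL was lost without FL replicate 1 or 3 or either Synthecon set (adjusted p between 0.0503 and 0.151).

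In all, members called against BM numbered 6 in Synthecon (29.4% of all probes called), 5 in Spinner (28.5%), 4 in Static (23.2%) and 7 in undiff (28.5%). Against FL they numbered 6 in Synthecon (26.1%), 4 in Spinner (25.8%), 4 in Static (20.9%) and 5 in undiff (25.7%). No test was made of these shares. In undiff minus BM the called members were Ctgf, Cyr61, Fos, Jun, Klf6 (-1.36, adjusted p = 0.0142), Egr1 (-1.31, 0.0417) and Edn1 (at least 1.65-fold higher, 0.0267), and the Egr1 call was present in 8 of the 17 fits with a sample left out. The Klf6 call was lost without undiff replicate 2 or BM replicate 2 or 3, and the Edn1 call without undiff replicate 3 or any BM replicate. Against FL, Jun was lower in Synthecon (-1.87, adjusted p = 0.00136), Spinner (-1.19, 0.0146) and undiff cells (-1.03, 0.0324), and Fos in Synthecon (-2.40, 0.000622) and undiff cells (-2.29, 0.000386). The Jun call was lost in Spinner minus FL without Spinner replicate 1 or 2 or FL replicate 3, and in undiff minus FL without undiff replicate 1 or 3 or FL replicate 2 or 3. The 4 calls in Static minus FL were Ctgf, Cyr61, Egr1 (1.49, adjusted p = 0.0294) and Edn1 (at least 1.75-fold, adjusted p = 0.0496). The Edn1 call in Static minus FL was present in 2 of the 17 fits with a sample left out, and the Egr1 call was lost without Static replicate 2 or 3 or FL replicate 1 or 2 (adjusted p between 0.0769 and 0.107).

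**Figure D3:**
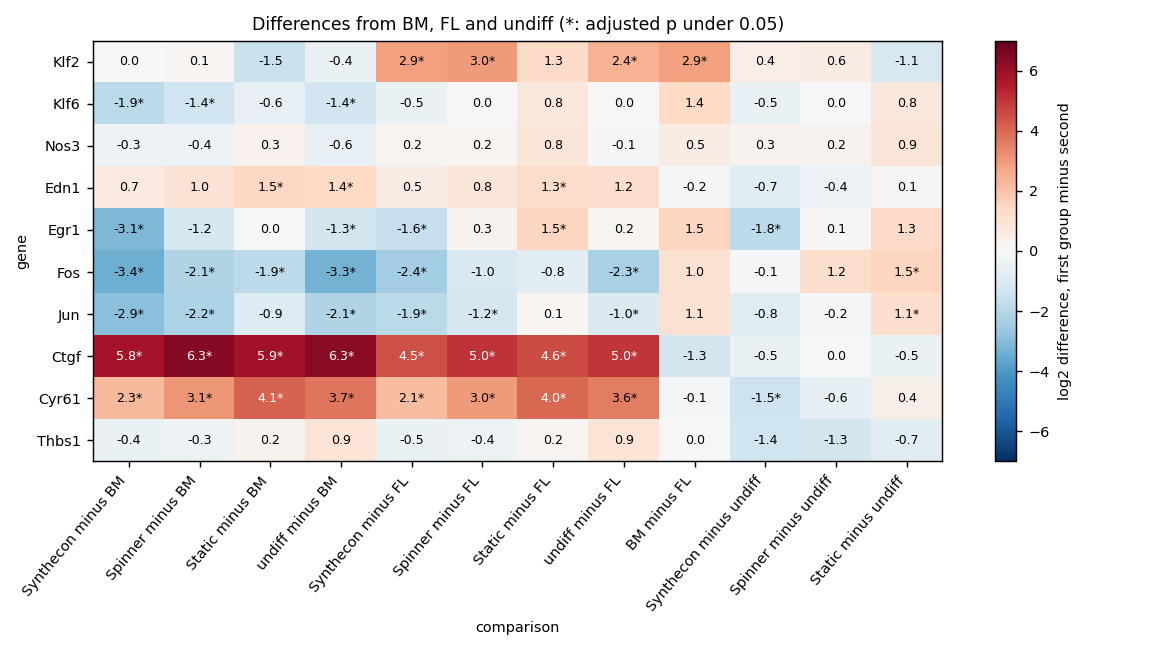
Log2 difference (colour and number, first group minus second) of each gene in 12 comparisons with BM, FL and undiff; a star marks an adjusted p under 0.05. Ctgf and Cyr61 are positive against BM and FL in every group of ESC origin, and Fos is negative against BM in each of them.

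Between the 2 native populations Klf2 was called, and more members were called once the slide was taken into account. It read 10.44, 13.36 and 12.55 on BM replicates 1, 2 and 3, against 8.82, 9.21 and 9.75 on FL replicates 1, 2 and 3, with no overlap. BM minus FL was 2.85 (adjusted p = 0.0253, limma), and it was the 1 member called, beside 1.23% of all probes. The call was lost without BM replicate 2 (2.23, adjusted p = 0.15), BM replicate 3 (0.143), FL replicate 1 (0.111) or FL replicate 2 (0.0995). Without BM replicate 1, the lowest BM array for Klf2, Klf6, Egr1, Fos and Jun and the only BM array on slide 1, the difference was 3.69 and Klf6 (1.90, adjusted p = 0.00417), Egr1 (2.12, 0.00594) and Jun (1.51, 0.00671) were called as well. Klf2 was also higher than in FL in Synthecon (2.85, adjusted p = 0.00464), Spinner (2.97, adjusted p = 0.00146) and undiff cells (2.41, adjusted p = 0.00704), and the Synthecon call became 0.051 without Synthecon replicates 1, 3, 5 and 7. With the slide as a fixed block, and within slide 2, which held BM replicates 2 and 3 and all FL arrays, 5 members were called in BM minus FL (Klf2, Klf6, Egr1, Fos and Jun), and with a random block 3 (Klf2, Klf6 and Egr1). The genes nearest to Klf2 over the 17 samples were Klf4 (r = 0.902), Ly75 (0.888) and Celsr3 (0.877).

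Across all 6 groups, 8 of the 10 members passed limma's F test at an adjusted p under 0.05, beside 43.5% of all probes, and Nos3 (0.178) and Thbs1 (0.388) did not. The smallest adjusted p belonged to Cyr61 (1.35e-07) and Ctgf (1.58e-07), followed by Fos (2.5e-05) and Jun (6.22e-05). In order of mean signal Fos ran BM, FL, Static, Spinner, undiff and Synthecon, and no neighbouring pair of groups in that order differed by the test (adjusted p between 0.0828 and 0.916). Jun ran BM, Static, FL, undiff, Spinner and Synthecon, and the neighbours FL and undiff differed (adjusted p = 0.0324). Egr1 ran Static, BM, Spinner, undiff, FL and Synthecon, and FL and Synthecon differed (adjusted p = 0.0259). Ctgf and Cyr61 each had 1 step between neighbours that passed, Synthecon over FL (adjusted p = 4.55e-05 for Ctgf and 0.000501 for Cyr61). Over the 17 samples Fos and Jun correlated at r = 0.89 and Ctgf and Cyr61 at r = 0.91. The genes nearest to Fos were P2ry14 (r = 0.938), Ap1m1 and Sort1, to Jun were Paqr7 (0.945), Sort1 and Arpc1a, to Egr1 were Rrbp1 (0.885), Klf6 and Surf4, and to Klf6 were Slc2a6 (0.938), Sort1 and Ccl6. Nearest to Edn1 were Foxa3 (0.909), Acta1 and Vcp, to Nos3 were Fras1 (0.871), Cdk8 and Ghrl, and to Thbs1 were Arhgap24 (0.901), Ogn and Fxyd4. Thbs1 was brightest on undiff replicate 2 (9.12), where the fibroblast marker mean was 7.99, against 6.72 and 6.78 on undiff replicates 1 and 3.

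**Figure D4:**
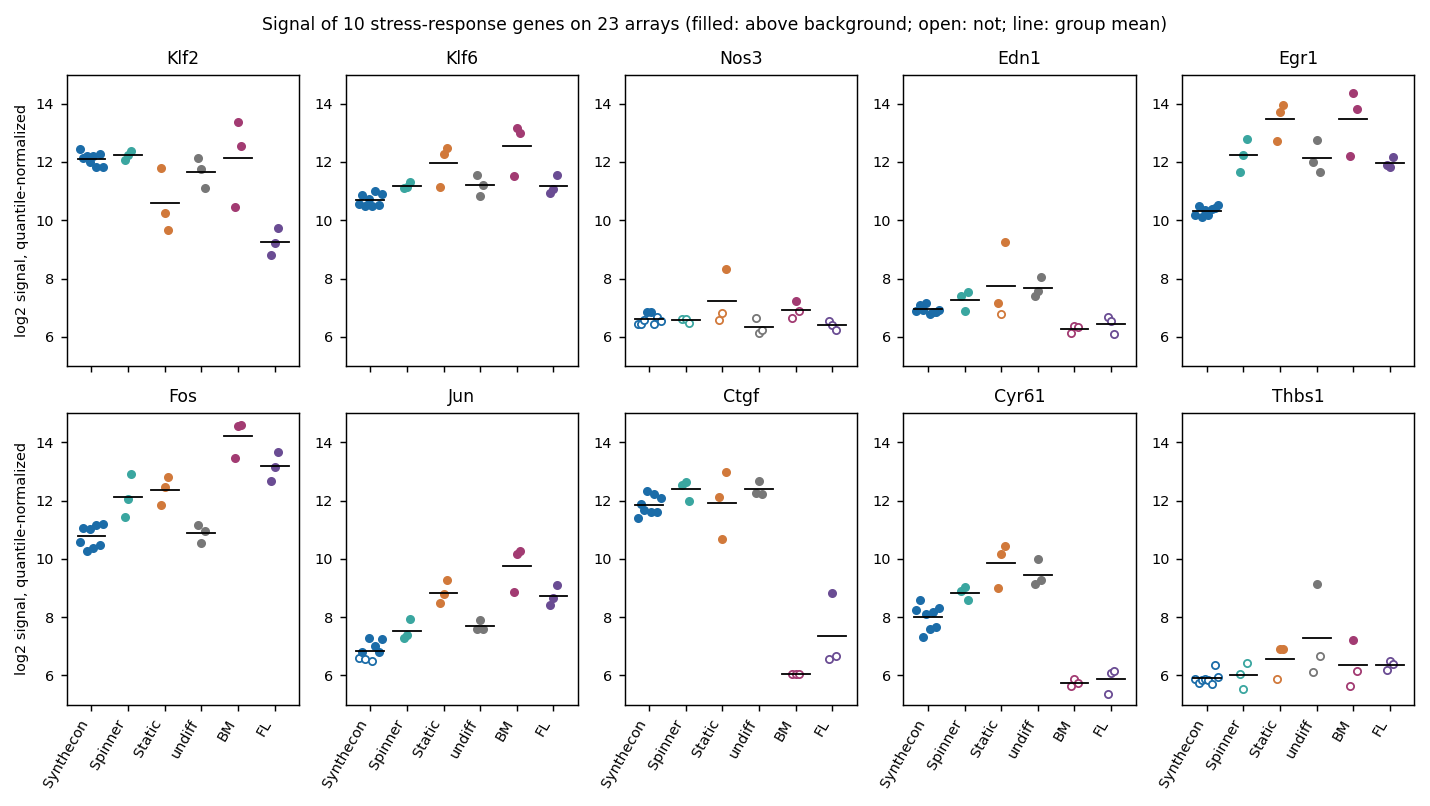
Log2 signal (vertical axes, quantile-normalized) of each gene on the 23 arrays by group, with filled points above background, open points not above it, and a line at the mean over samples. Egr1, Fos and Jun have their lowest mean in Synthecon, and Ctgf and Cyr61 fall to background in BM and in all or most FL arrays.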

How the data were processed

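The authors summarized bead signals in BeadStudio, subtracted background, normalized arrays by quantiles and deposited log2 values, which were used as deposited for 25697 probes. The deposited intensity table (background-subtracted, not normalized between arrays) served 2 alternatives, and the deposited detection p-value of each probe and array, computed by the authors' software against negative control beads, marked probes above background (under 0.01). The 10 genes and all gene lists were chosen with earlier results of these data known. Group means of 17 samples (8 Synthecon arrays as 2 set means) were fitted in limma 3.58.1 (R 4.3.3) with eBayes and a trend, with p-values adjusted by Benjamini-Hochberg over all probes and a threshold of 0.05. The procedure was tried on simulated data with independent noise between samples. Slide effects and near-repeat arrays were not simulated, so that trial does not cover them. Of a gene with several probes the brightest was read. All members were named, with up to 4 called genes per list between cultures, up to 2 against BM and FL, and the 3 genes nearest by Pearson r. The number of arrays limits precision. Slides are those of the array identifiers in the labels: slide 1 held undiff 1 to 3, Static 1 and 2, Spinner 1 and 2 and BM 1, slide 2 held Spinner 3, FL 1 to 3, BM 2 and 3 and Synthecon 1 and 2, and slide 3 held Static 3 and Synthecon 3 to 8. Alternatives were all 23 arrays as samples, slide as a fixed or random block or within slides, a replicate block, neqc and median scaling. Others were a filter on dim probes, no trend, array weights, only the groups compared, a t-test between 2 groups, the mean of a gene's probes and each sample left out. That t-test used the 17 samples, with p-values adjusted over all probes. The study ran its pairwise t-tests only on genes that had passed an ANOVA across groups, a step not repeated here. The tables of the authors' own tests were not used. Probe accessions were matched to current symbols through RefSeq for 94.2% of probes. The genome build of the array annotation is not given in the sources used here.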

Additional observations from a re-analysis of the deposited data

Results flagged for a closer look

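Thbs1 on Synthecon replicate 7 read 6.36, apart from the other 7 Synthecon arrays, of which the nearest read 5.96. The gap was 0.612 of the range of the 8 arrays, above Dixon's 95% critical value for 8 samples. All 8 values were below background, and chance alone marks about 1 in 20 groups, with 10 genes examined.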

How the results depend on the processing

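Members called in Spinner minus Static numbered 1, and 4 with all 23 arrays as samples, 2 with the slide as a fixed or a random block and 0 within slide 1. The count was 2 among probes above background on at least 2 arrays, 4 with array weights and 0 with only the groups compared. By a t-test between the 2 groups, with equal or unequal variances, members called numbered 0. In Synthecon minus Static they numbered 4, and 7 with all 23 arrays, 7 with the slide as a fixed block, 10 within slide 3 (1 Static array), 2 with only the groups compared and 0 by either t-test. In Synthecon minus Spinner they numbered 0, and 3 with all 23 arrays, 3 with a fixed and 2 with a random slide block, 2 within slide 2, 1 after the filter on dim probes, 3 with array weights and 5 with only the groups compared. In BM minus FL they numbered 1, and 3 with all 23 arrays, 5 with a fixed and 3 with a random slide block, 5 within slide 2, 7 with array weights, 0 with only the groups compared and 0 by either t-test. Over all probes the t-tests with equal and unequal variances called 1 and 0 in Spinner minus Static, and 0 and 0 in Synthecon minus Static. In Synthecon minus Spinner they called 167 and 0. Their counts of 0 members there thus say little about the members. These t-tests called 0 and 0 of the 4 members called in any LKS culture minus undiff. Where 7 were called in any culture minus BM they called 5 and 2. They called 4 and 2 where 7 were called in any culture minus FL, and 5 and 2 where 8 were called in undiff minus BM or FL. With each sample left out in turn, the counts ran between 0 and 6 (Spinner minus Static), 1 and 6 (Synthecon minus Static), 0 and 1 (Synthecon minus Spinner), 2 and 6 (cultures minus undiff), 6 and 8 (minus BM), 5 and 9 (minus FL), 5 and 9 (undiff minus BM or FL) and 0 and 4 (BM minus FL). The causes of these shifts were not tested. No called member changed sign. The number of probes called moved as well, for example in Synthecon minus Static to 6535 with all 23 arrays and 234 with only the groups compared, against 2952. Leaving out each Static sample for the list counts was added after seeing the data. Where 1 sample of a group was left, it was assumed to vary like the other groups. Nos3 and Thbs1 were near background on most arrays, which limits what their values can show.

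The replicate numbers did not pair the samples in all groups. Same-numbered samples of different groups had deviations correlated at -0.431 to 0.376 (median 0.0715, over 0.1 in 11 of 30 pairs). Between Spinner and Static the same-numbered pairs stood at 0.376, 0.09 and 0.286, against -0.293 to 0.05 for the other pairs. Between BM and FL they stood at 0.121, -0.431 and -0.005. A pairing of Spinner and Static samples thus remains possible, and the main fit took them as unpaired. With all 23 arrays and a replicate block, members called numbered 3 in Spinner minus Static and 2 in Synthecon minus Spinner.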
